A study of Mus musculus with 6 samples.

Results

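Nuclei of the mouse retina that carried Slc6a9 but little Dab1, a gate meant for glycinergic amacrine cells other than the AII type, were described across 6 libraries of single-nucleus RNA. Of 55230 kept nuclei, 81 passed the gate. They were 21, 14 and 13 nuclei in the 18-month libraries and 12, 12 and 9 nuclei in the 3-month libraries. Nuclei with fewer than 300 detected genes, or with over 5% of UMIs (counted RNA molecules) from mitochondrial genes, had been removed. The members were chosen by measured counts: the gate asked for at least 2 UMIs of Slc6a9, at most 2 of Dab1, at least 1 of Pax6, Tfap2a or Tfap2b, none of Gad1 or Gad2, and at most 1 of Slc17a8. It also allowed at most 1 UMI in all over 8 genes of other classes (Slc1a3, Rbpms, Slc17a6, Lhx1, Trpm1, Grm6, Arr3 and Pde6c). These counts are given as a description, with no test.

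The study compared retinas of 18-month-old and 3-month-old wild-type C57BL6/J mice, with 3 libraries at each age and no other treatment or allele in these samples. The labels do not say whether each library came from a separate animal or from pooled retinas, so p-values measure the spread between libraries, which may be technical. The 81 nuclei held 93101, 36831 and 19594 UMIs in the 18-month libraries and 22488, 31337 and 31125 UMIs in the 3-month libraries. Their median depth was 4242, 2494 and 1292 UMIs per nucleus at 18 months and 1652.5, 2015.5 and 2995 at 3 months. No 2 libraries shared a barcode among the members, while 8 to 71 kept barcodes were shared between pairs of libraries.

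Amacrine cells are inhibitory interneurons of the inner retina and release either GABA or glycine. Slc6a9 encodes GlyT1, the transporter that takes up glycine and is the usual marker of glycinergic amacrine cells. The AII cell, the best known of them, passes rod signals from rod bipolar cells into the cone pathway and is marked by Dab1, an adaptor of reelin signalling. The remaining glycinergic types are narrow-field cells that connect layers of the inner plexiform layer, among them the SEG cells, which are marked by Ebf3. The nGnG cells, marked by Ppp1r17 and Neurod6, are amacrine cells that are neither GABAergic nor glycinergic.

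The gate narrowed at each step. Of the kept nuclei, 1202 had at least 2 Slc6a9 UMIs, 746 of these had no Gad1 or Gad2, 560 had an amacrine factor, 318 were low in the genes of other classes, 312 were low in Slc17a8, and 81 had at most 2 Dab1 UMIs. Slc6a9 stood at the threshold of 2 UMIs in 62 members, at 3 in 18 and at 4 in 1. Dab1 was at 0 in 37 members, at 1 in 23 and at 2 in 21. Pax6, the master regulator of eye development that amacrine cells keep in the adult, was seen in 66 members, Tfap2b, an amacrine transcription factor, in 28, and Tfap2a in 11. The Slc6a9 locus (GENCODE M21 on mm10, chr4:117834506-117875198, plus strand) is overlapped on the other strand by Gm17114, Ccdc24 and B4galt2. Whether the counting used strand is not given in the sources used here.

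Most members were nearest a profile of another class than amacrine cells, against the name of the gate. Each nucleus was set against summed profiles of 9 retinal classes from the other 5 libraries, with every gene of the gates left out, and was given to the class of the highest likelihood. Of the 81 members, 24 (29.6%) were nearest an amacrine profile, 30 were nearest a photoreceptor profile (18 rod, 12 cone), 12 a bipolar profile, 11 Müller glia and 4 ganglion cells. All 12 cone-nearest members were in replicate 1 of either age, and all 18 rod-nearest members were in the other libraries. Replicate 1 of both ages had the earlier Cell Ranger release, so the rod and cone split cannot be told apart from library or release. These placings depended on the profiles. With profiles from the nucleus's own library 53 of 81 members kept their group, with 23 nearest an amacrine profile, 43 a photoreceptor profile and 2 Müller glia. With 3 non-neural profiles added, 23 were nearest an amacrine profile and 17 a non-neural one. In all, 19 members were amacrine-nearest under all 3 sets, and 17 were close calls (a log likelihood margin under 10). By library, 6 of 21, 6 of 14 and 1 of 13 members were nearest an amacrine profile at 18 months, and 5 of 12, 4 of 12 and 2 of 9 at 3 months. The same rule placed 83.1% of the 231 nuclei of the AII-like gate (the same conditions with at least 3 Dab1 UMIs) and 80.4% of the 976 nuclei of the GABAergic amacrine gate with an amacrine profile, and 10.8% of 1800 rod-gate nuclei. Both of those amacrine gates supplied a profile of their own type and the members did not, so their shares were bound to be higher and the difference was not tested. The 81 nuclei are therefore called Slc6a9-gated nuclei below and are given no cell type name.

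**Figure D1:**
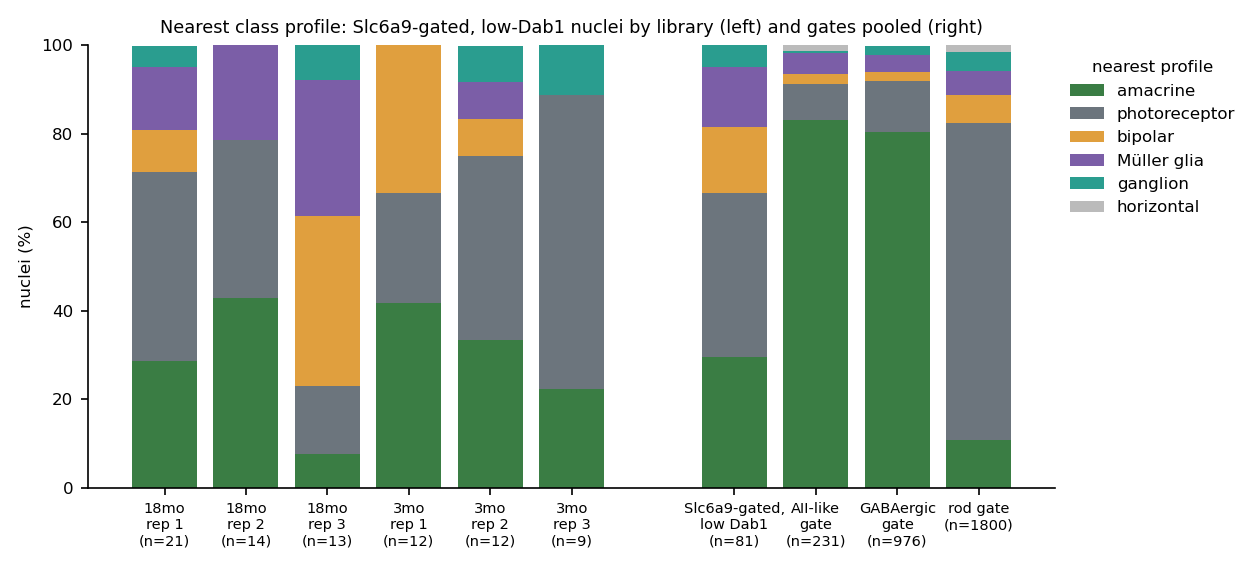
Share of nuclei (%) by nearest class profile, for the Slc6a9-gated nuclei of each library on the left and for 4 gates pooled over libraries on the right (n, nuclei). Amacrine profiles took 7.69 to 42.9% of the Slc6a9-gated nuclei of a library, against 83.1% of the AII-like gate and 80.4% of the GABAergic gate.

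The share of RNA from rod genes was measured in the same gates. The 16 rod markers, all detected, took 1.59, 1.66 and 2.03% of UMIs in the Slc6a9-gated nuclei at 18 months and 1.86, 2.23 and 3.32% at 3 months. In the AII-like gate they took 0.920, 0.971 and 1.46% at 18 months and 1.34, 1.73 and 2.15% at 3 months. In the GABAergic gate they took 0.562, 0.864 and 1.15% at 18 months and 1.12, 1.27 and 1.27% at 3 months. The Slc6a9-gated nuclei were above both other gates within every library. The mean difference was 0.685 percentage points from the AII-like gate and 1.08 from the GABAergic gate, each with a two-sided exact permutation p of 0.03125 over library pairs, the smallest that 6 pairs allow, and 0.0938 after Benjamini-Hochberg adjustment over the 6 exact tests made here. The comparison was added after the data had been seen. Markers of the other classes summed to far less: cone markers to at most 0.0970% of UMIs (Cnga3 at 0), Müller glia markers to at most 0.220% (Kcnj10 at 0), bipolar markers to at most 0.142% (Vsx1 at 0), ganglion cell markers to at most 0.0462% (Pou4f1, Pou4f3 and Isl2 at 0) and microglia and vascular markers to at most 0.0267% (C1qa, Cldn5 and Rgs5 at 0). Horizontal cell markers summed to at most 0.0255%, with Onecut1 and Onecut3 at 0. The gate put a cap on the UMIs of genes of other classes and none on rod markers. The contrast between rod markers and those of the other classes was therefore in part set by the gate. Mean sums in the members and the AII-like gate, which had the same cap, were 0.0517 and 0.0296% for cone markers. They were 0.132 and 0.0827% for Müller glia, 0.119 and 0.107% for bipolar and 0.0313 and 0.0278% for ganglion cell markers. For horizontal cell markers they were 0.0179 and 0.0335%, and for microglia and vascular markers 0.0175 and 0.0107%. These differences were not tested.

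Single nuclei differed widely. Rod markers took 0.371 to 3.74% of the UMIs of the 24 amacrine-nearest members (median 0.790%), 0.972 to 7.64% in the 30 photoreceptor-nearest members (median 2.94%), and 0.680 to 2.54% in the other 27 (median 1.38%). Most rod markers were part of the profiles, so this ordering describes the assignment and is no separate evidence for it. The amacrine-nearest members were not the deepest, with a median of 1985 UMIs, against 2982.5 in the photoreceptor-nearest and 1686 in the other members.

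**Figure D2:**
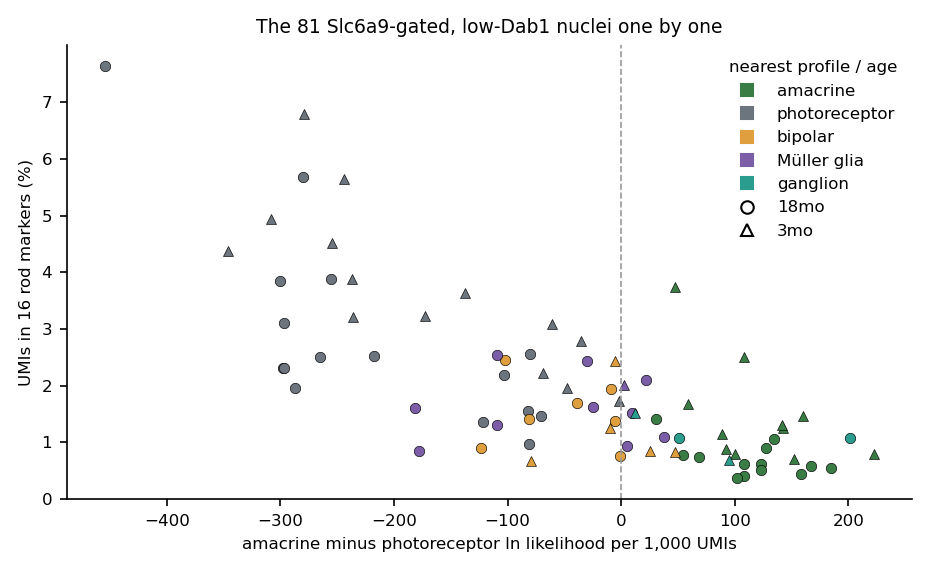
Each of the 81 Slc6a9-gated nuclei by its amacrine minus photoreceptor log likelihood per 1000 UMIs (x axis) and the share of its UMIs in 16 rod markers (y axis, %), coloured by nearest profile, with circles for 18 months and triangles for 3 months. The 24 amacrine-nearest nuclei lie right of 0 with a median of 0.790% rod markers, and photoreceptor-nearest nuclei reach 7.64%.

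Counts of Slc6a9 were also present in nuclei of other gates. At least 2 Slc6a9 UMIs were found in 26.3% of 228 nuclei gated as Müller glia, 14.7% of 1837 gated as ON bipolar cells, 9.43% of 3711 cones, 2.51% of 4096 ganglion cells and 1.44% of 20102 rods, by gates that set no condition on Slc6a9. The depth of these gates differed, with library medians of 3436.5 to 10555 UMIs in Müller glia, 3006 to 8799 in ON bipolar cells and 921.5 to 1711 in rods. Free RNA was not estimated, so these shares count nuclei with UMIs and do not show expression by class. The 1.44% of rods were 289 nuclei, of which 212 also had a UMI of Pax6, Tfap2a or Tfap2b. Of all 20102 rods, 30.4% had such a UMI. The shares were not matched for depth.

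With 1 Slc6a9 UMI and every other condition met, 576 nuclei lay just outside, and 28.8% of them were nearest an amacrine profile. Of the 21 members with 2 Dab1 UMIs, 9 were nearest an amacrine profile (5 of them AII-like), against 9 of 37 with no Dab1, none of them AII-like. Tcf4, a basic helix-loop-helix factor of glycinergic amacrine cells, stood at 14.1 UMIs per 10000 in the members with 2 Dab1 UMIs. It stood at 11.2 in the 20 AII-like nuclei with 3, but at 7.09 in the members with none. These levels were pooled over libraries. Of the UMIs of members with no Dab1, 18-month replicate 1 gave 66324 of 114202, against 9591 of 56649 in those with 2. Every library held members of both kinds, but levels were not compared within libraries. The part of the library in these values was not tested.

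Set against GABAergic amacrine nuclei, the Slc6a9-gated nuclei had more RNA of the transcription factors Tcf4 and Ebf1 and of rod genes, and less RNA of adhesion, guidance and synaptic receptor genes. edgeR's quasi-likelihood test on counts summed per library, with a term for the library, called 543 of 3507 genes (15.5%) at a threshold of 0.05 on p after Benjamini-Hochberg adjustment, of which 212 were higher (6.05%) and 331 lower (9.44%) in the Slc6a9-gated nuclei. Without 18-month replicate 1, which gave 93101 of the 234476 UMIs of the members, 266 genes were called. Without a library term 390 were called. Of the 234476 UMIs in the members' sums, 57491 came from amacrine-nearest, 109960 from photoreceptor-nearest and 67025 from the other members. The same sums entered the comparison with the AII-like gate and that between ages. Rod markers moved with the comparison with the GABAergic gate, and their part in it was not tested.

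Tcf4 had 7.41, 10.1 and 5.61 UMIs per 10000 in the Slc6a9-gated nuclei at 18 months and 11.6, 11.8 and 7.71 at 3 months. In the GABAergic gate it had 1.63, 2.81 and 5.08 at 18 months and 2.90, 1.88 and 1.49 at 3 months. The gates did not overlap, and the log2 difference was 1.80 ± 0.27 (SE; edgeR adjusted p = 2e-05). The AII-like gate had a like level of 8.65 ± 1.24 (SD, n = 6). Ebf1, an early B cell factor used by several retinal neurons, averaged 5.22 ± 3.26 UMIs per 10000 in the Slc6a9-gated nuclei, with 11.6 in 3-month replicate 1 and 2.69 to 5.10 elsewhere, and 1.06 ± 1.02 in the GABAergic gate (SD, n = 6 libraries). Its log2 difference of 2.39 ± 0.31 was the largest of the named genes that were higher (edgeR adjusted p = 2.85e-06), with the same direction in 6 of 6 libraries.

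Of the 38 amacrine transcription factors listed, 13 were tested, and 4 were called higher and 4 lower (median log2 difference −0.11, against −0.05 for all genes tested). Beside Tcf4 and Ebf1, Neurod1, a photoreceptor and amacrine differentiation factor, was higher by 1.62 and Nfib, a nuclear factor I gene, by 1.52 on the log2 scale. Meis2, a homeobox factor of GABAergic amacrine cells, had 4.51, 6.79 and 6.12 UMIs per 10000 in the Slc6a9-gated nuclei at 18 months and 3.56, 1.60 and 2.57 at 3 months. In the GABAergic gate it had 14.8, 11.4 and 7.90 at 18 months and 13.8, 13.5 and 13.2 at 3 months. The log2 difference of Meis2 was −1.73 ± 0.29 (edgeR adjusted p = 6.4e-05), and Zfhx3, Zfhx4 and Maf were also lower.

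The other genes with the largest positive differences were mostly ones that the rod gate carries. That gate is a loose reference, since 32.3 to 93.0% of its nuclei in a library were photoreceptor-nearest. Rod markers took 1.98 to 7.35% of its UMIs. The 1.98%, in 18-month replicate 3, lay below the 2.03% of the Slc6a9-gated nuclei there. Gucy2f, a guanylate cyclase of photoreceptors, averaged 2.34 ± 0.83 UMIs per 10000 in the Slc6a9-gated nuclei and 0.482 ± 0.151 in the GABAergic gate, while the rod gate averaged 2.09. Prom1 (prominin, of outer segment discs) averaged 5.11 in the Slc6a9-gated nuclei and 1.1 in the GABAergic gate, with 4.10 in rods. Pla2r1, Lrit2, Diaph3, Hk2, Vax2os and the gene model Gm20139 likewise had levels near those of the rod gate. Cacna2d3, a calcium channel subunit, differed from these with 3.60 in the Slc6a9-gated nuclei, 0.868 in the GABAergic gate and 1.70 in rods. Of the 16 rod markers, all tested, 14 were called higher and none lower, with a median log2 difference of 0.96.

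**Figure D3:**
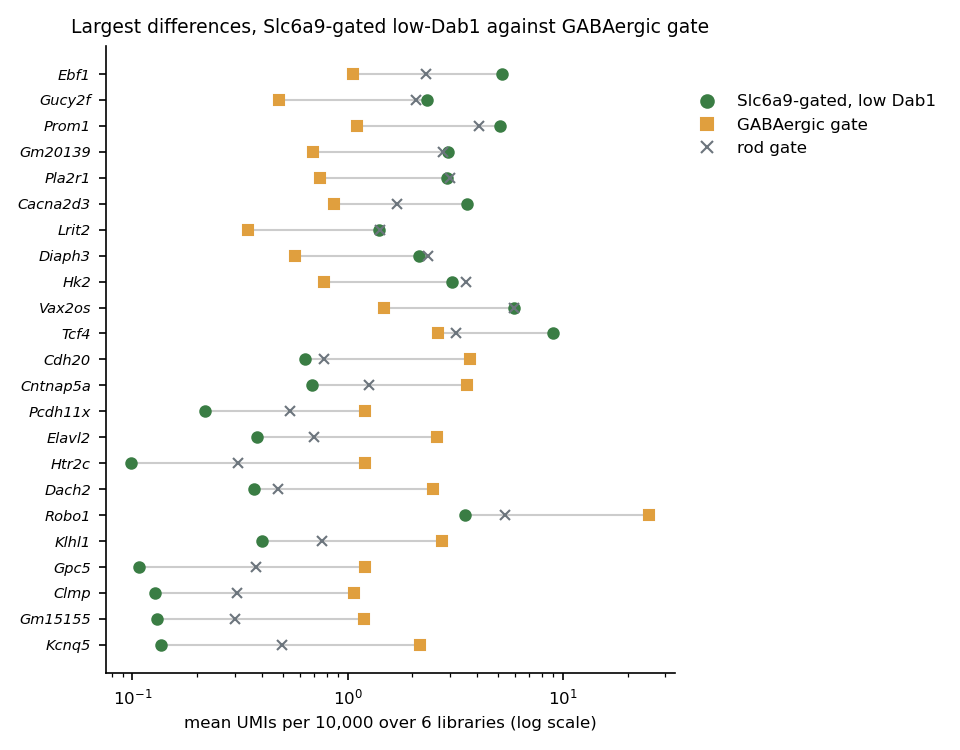
Mean level (UMIs per 10000 over 6 libraries, log scale) of the named genes shown, in the Slc6a9-gated nuclei (circles), the GABAergic gate (squares) and the rod gate (crosses). Among the higher genes, Tcf4, Ebf1 and Cacna2d3 stand farthest above the rod gate, and all 12 lower genes lie below their level in rods.

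Adhesion and guidance genes were lower as a group. Of 57 listed, 49 were tested, 29 were called lower and 2 higher (Dscaml1 and Pcdh15), with a median log2 difference of −1.08. Over all genes tested, 9.44% were lower and 6.05% higher, with a median of −0.05, and the lists below are to be read against the same values. Robo1, a receptor for the guidance cue Slit, had 1.18, 5.97 and 7.14 UMIs per 10000 in the Slc6a9-gated nuclei at 18 months and 3.56, 0.638 and 2.57 at 3 months. In the GABAergic gate it had 27.1, 30.0 and 19.5 at 18 months and 20.2, 33.0 and 21.8 at 3 months. Every library of the Slc6a9-gated nuclei was below every library of the GABAergic gate, at a log2 difference of −3.19 ± 0.34 (edgeR adjusted p = 1.24e-07). Robo2, Csmd1, Cntnap2 and Dcc were lower by 1.15, 1.99, 1.47 and 0.93 on the log2 scale.

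The lowest named genes were nearly absent. Kcnq5, a subunit of the M-type potassium channel, had 3 UMIs in the Slc6a9-gated nuclei, all in 18-month replicate 2, and averaged 2.17 ± 1.13 UMIs per 10000 in the GABAergic gate (log2 difference −4.11 ± 0.62, edgeR adjusted p = 2.5e-05). Clmp and Gpc5 had 2 UMIs each, Klhl1 had 6, and the serotonin receptor gene Htr2c had 4. Dach2, Elavl2, Pcdh11x, Cntnap5a, Cdh20 and the gene model Gm15155 completed the list. With so few UMIs, these log2 values rest on counts close to the detection limit of 0.128 UMIs per 10000 (3 UMIs over all members, which covers counting error alone).

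The receptor genes that were called were all lower. Of 24 glutamate receptor genes, 17 were tested and 8 were called lower and none higher (median log2 difference −0.90). Gria2 and Gria3, subunits of AMPA receptors, were lower by 0.90 and 1.49 on the log2 scale. Of 18 GABA receptor genes, 10 were tested and 4 were called lower, among them Gabra2 at −1.47. Of 14 genes of glycinergic transmission, 6 were tested, and Slc32a1 (the vesicular transporter of GABA and glycine) and Glrb (the glycine receptor beta subunit) were called lower at −1.32 and −1.27. Of 36 voltage-gated channel genes, 28 were tested, and 11 were called lower and 2 higher. Slc6a5, the glycine transporter GlyT2, had 12 UMIs in 9 of 81 Slc6a9-gated nuclei and stood below the filter.

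Against the AII-like gate, the Slc6a9-gated nuclei had less RNA of the AII markers Prox1 and Nfia and more of rod genes, Ebf1 and Meis2. edgeR called 184 of 482 tested genes (38.2%), 92 higher and 92 lower (19.1% each). Both gates were divided by Dab1 itself, so differences in other AII markers describe that division. The count depended on single libraries, with 104 genes called without 18-month replicate 1 and 99 without 18-month replicate 2. It was 66 (10 higher, 56 lower) in the fit without a library term.

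Prox1, a homeobox gene, had 1.18, 0 and 2.04 UMIs per 10000 in the Slc6a9-gated nuclei at 18 months and 0.889, 1.60 and 0.964 at 3 months. In the AII-like gate it had 4.53, 5.08 and 5.20 at 18 months and 4.57, 4.71 and 3.92 at 3 months. No library overlapped between the gates, and the log2 difference was −2.0 ± 0.35 (edgeR adjusted p = 0.000822). Nfia, a nuclear factor I gene, averaged 1.77 ± 1.12 in the Slc6a9-gated nuclei and 7.67 ± 2.09 in the AII-like gate (SD, n = 6; log2 difference −2.21 ± 0.27, edgeR adjusted p = 6.8e-05). Nrg1, the growth factor neuregulin, averaged 10.3 ± 9.56 in the Slc6a9-gated nuclei, with 21.9 in 18-month replicate 3, 23.0 in 3-month replicate 2 and 2.57 to 6.23 elsewhere, and 77.3 ± 11.7 in the AII-like gate (log2 difference −3.22 ± 0.38).

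Tll1, Csmd3, the channel genes Kcnma1 and Kcnq3, Slc24a2, Dync1i1, Ano4, Spink13 and the models Gm45459 and E130114P18Rik completed the 12 largest negative differences, from −4.35 for Gm45459 to −2.13 for Ano4. Gria3 (−1.74), the GABA receptor subunit gene Gabrg3 (−1.67), Kcnh7 (−1.50) and Sdk1, an adhesion gene of the inner plexiform layer (−1.87), were also lower in all 6 libraries. Among the positive differences, Rcvrn, Guca1a, Guca1b, Rom1 and Pde6b are photoreceptor genes, and 11 of 14 tested rod markers were called higher (median log2 difference 0.71, against 0.16 for all genes tested). Fam57b, Wdr17, Rps2, Rps27a, Kctd16 and the thyroid hormone receptor gene Thrb were also higher, by 0.91 to 1.23 on the log2 scale. Galntl6, a glycosyltransferase gene, differed most, with 9.29 ± 6.87 UMIs per 10000 in the Slc6a9-gated nuclei and 2.62 ± 1.30 in the AII-like gate (log2 difference 1.69 ± 0.30, edgeR adjusted p = 0.000912). Ebf1 and Meis2 were higher than in AII-like nuclei by 0.86 and 0.83 on the log2 scale, each in 5 of 6 libraries. Tcf4 did not pass the test (0.17 ± 0.19, edgeR adjusted p = 0.511).

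**Figure D4:**
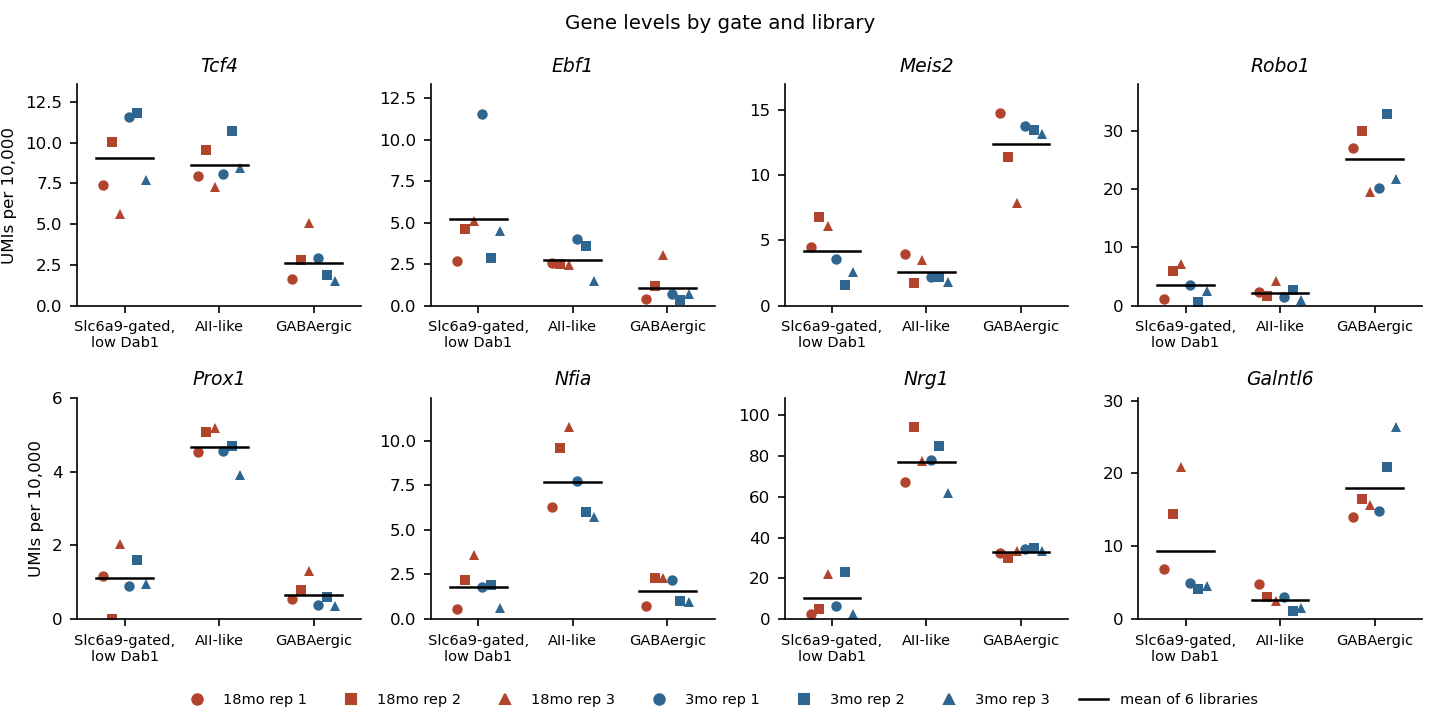
Levels (UMIs per 10000) of 8 genes in the Slc6a9-gated nuclei, the AII-like gate and the GABAergic gate, 1 point per library (18 months red, 3 months blue) with the mean of 6 libraries as a line. Tcf4 averages 9.03 in the Slc6a9-gated nuclei, 8.65 in the AII-like gate and 2.63 in the GABAergic gate, while Prox1 averages 1.11, 4.67 and 0.666.

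The amacrine-nearest members had higher levels of several neuronal and synaptic genes than the other members. Pooled over libraries, Tcf4 stood at 17.2 UMIs per 10000 in the 24 amacrine-nearest members and at 5.93 in the other 57. Nrxn3, a presynaptic adhesion gene, stood at 85.1 in the amacrine-nearest and 25.8 in the other members, Synpr, a synaptic vesicle gene, at 8.35 and 3.16, and Gria2 at 10.8 and 4.24. Glra3, a glycine receptor subunit gene, stood at 5.22 and 0.678, and Slc6a5 at 1.22 and 0.282. Ebf1 differed less, with 6.96 and 3.45, and Robo1 reached 5.22 in the amacrine-nearest members, below the GABAergic gate's mean of 25.3. Sag, rod arrestin, ran the other way with 9.39 and 40.1. Slc6a9 itself was at 9.91 in the amacrine-nearest members. All of these genes except Slc6a9 were part of the assignment, so the values are a description.

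Ebf3, a marker of SEG cells, was found in 17 of 81 members (21%, exact 95% interval 12.7 to 31.5%, counting error alone), 8 of them amacrine-nearest, with 37 UMIs in all. All 17 also had Ebf1, which 43 members carried, where 9.03 shared nuclei would follow from the margins alone. All 17 had Tcf4 too, where 12.8 would follow. Observed over expected sharing with Ebf3 was 1.88 for Ebf1. Over the listed genes it ran from 0.318 (Zfhx4) to 2.38 (Cdh8 and Nfix). These counts were not thinned, so depth enters them. Thinned to 1500 UMIs a nucleus, which leaves 59 members, Ebf3 was found in 22.0% of members, 15.1% of 199 AII-like, 1.79% of 836 GABAergic and 5.59% of 519 rod-gate nuclei. Median depths before thinning were 2345 UMIs in the members, 2543 in the AII-like gate, 2861 in the GABAergic gate and 1069 in the rod gate. Ppp1r17, an nGnG marker, was found in 4 members. Neurod6 and Neurod2 were found in 1 member each.

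Car3 had 10 UMIs in 2 members, both amacrine-nearest. Lamp5 was found in 13 members, 7 of them amacrine-nearest. Sst, Th, Crh, Lhx9, Etv1, Tbr1, Ptf1a and Gbx2 had no UMI in 81 members, which allows up to 3.70% of nuclei with a UMI at this depth and sets no limit on nuclei that express them. Tcf4 was found in 62.7% of the thinned members, 71.4% of AII-like, 25.2% of GABAergic and 31.8% of rod-gate nuclei.

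Clustering of the 81 nuclei on their own gave 7 groups of 6 to 18, which are described by their leading genes and not named. Group 1 (18 nuclei from all 6 libraries, 6 amacrine-nearest) was led by Lrfn5, Cntn5, Kcnd3 and Ebf3. Group 4 (12 nuclei, 8 amacrine-nearest) was led by Sgcz, Trhde, Adamtsl1, Gria1 and Glra3. Group 6 (7 nuclei, 6 amacrine-nearest) was led by Esr1, Spink13, Thsd4 and Tfap2c. Group 3 (14 nuclei, 12 photoreceptor-nearest) was led by Zan and Slc22a29 and drew 7 nuclei from 18-month replicate 1. Group 2 (15 nuclei, 10 photoreceptor-nearest) was led by Ttr, Lrmda, Trpm3 and Ptgds, and groups 5 and 7, of 9 and 6 nuclei, by Erbb4 and Pou2f2. No amacrine-nearest nucleus lay in groups 2, 3 or 7. The leading genes defined the groups and are not findings.

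Between ages, no gene was called in the Slc6a9-gated nuclei. edgeR tested 433 genes and called none (0%) at an adjusted p at or below 0.05, with 6 at an unadjusted p below 0.05. DESeq2 also called none, with 4 at an unadjusted p below 0.05. With a term for the Cell Ranger release, 7.1.0 for replicate 1 of each age and 7.2.0 for the others, edgeR again called none, with 17 below 0.05 unadjusted. The members' summed counts limited this comparison, since the low-count filter left 433 of 32285 genes. The ages did not overlap for 33 of the 433 tested genes, 21 higher and 12 lower at 18 months, and non-overlap was a condition for naming a gene here.

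Thsd4, which encodes a protein of the extracellular matrix, had 1.5, 0.543 and 1.53 UMIs per 10000 at 18 months, against 6.67, 4.15 and 3.21 at 3 months. The ages did not overlap, and the log2 difference was −1.94 ± 0.63 (edgeR unadjusted p = 0.00842, adjusted p = 0.98). Thsd4 was also among the leading genes of group 6, which held 1, 1 and 0 nuclei at 18 months and 3, 1 and 1 at 3 months. The part of that group in the difference was not tested. Galntl6 had 6.87, 14.4 and 20.9 UMIs per 10000 at 18 months, against 4.89, 4.15 and 4.50 at 3 months, with a log2 difference of 1.49 ± 0.52 (edgeR unadjusted p = 0.0132, adjusted p = 0.98). Il1rapl1, a synaptic adhesion receptor gene, had 4.19, 6.79 and 11.2 at 18 months, against 0.889, 3.19 and 2.25 at 3 months, a log2 difference of 1.58 ± 0.57.

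Hmgn1, a nucleosome-binding protein gene, had 1.93, 4.34 and 4.08 UMIs per 10000 at 18 months, against 5.78, 6.38 and 8.68 at 3 months. Meis2 averaged 5.81 ± 1.17 at 18 months and 2.57 ± 0.98 at 3 months, and Cacnb2, a calcium channel subunit gene, averaged 11.1 ± 3.94 at 18 months and 4.90 ± 1.05 at 3 months (SD, n = 3 each). All 6 genes had an edgeR adjusted p of 0.98. The makeup of the gate also differed between libraries, from 1 of 13 nuclei amacrine-nearest in 18-month replicate 3 to 6 of 14 in 18-month replicate 2. Its part in the values was not tested.

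**Figure D5:**
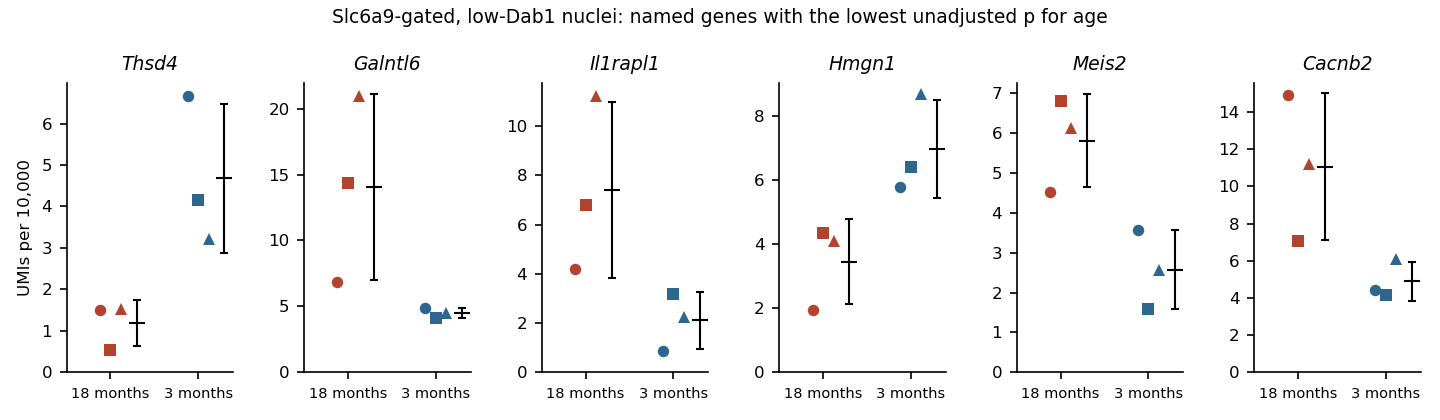
Levels (UMIs per 10000) in the Slc6a9-gated nuclei of the 6 named genes with the lowest unadjusted p for age, 1 point per library with mean and SD (n = 3 per age), 18 months left of 3 months. Genes were named only where the ages do not overlap, and each of the 6 has an edgeR adjusted p of 0.98.

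Other genes named for age were Unc13b, Ext1, Zmat4, Amy1, Ntm and Rere, with higher values at 18 months, and Kcnh7, Pkm, Tut4, Npepps, Ncam2 and Scg5, with lower values at 18 months. Each had an edgeR unadjusted p above 0.05. Of 14 tested rod markers, 12 had lower and 2 higher values at 18 months (median log2 difference −0.53, against 0.01 for all genes tested), and none was called. Rod markers together took 1.76% ± 0.24 of UMIs at 18 months and 2.47% ± 0.76 at 3 months (SD, n = 3 each; exact permutation p = 0.2, adjusted p = 0.4, with 0.1 the smallest that 3 against 3 libraries allow).

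The list of cytosolic ribosome genes had 16 members tested, 13 with lower and 3 with higher values at 18 months (median log2 difference −0.37). Mitochondrially encoded genes had 8 tested, 7 lower and 1 higher (median −0.25). Adhesion and guidance genes had 20 tested, 15 with higher and 5 with lower values at 18 months (median log2 difference 0.25). Over all 433 genes tested, 218 had higher and 215 lower values at 18 months (median 0.01). None of the genes of these lists was called, and the lists were not tested as sets. No gene of the neuropeptide, immediate-early, fatty acid or interferon lists passed the low-count filter.

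The age difference itself was compared between gates as an interaction. Against the GABAergic gate, 1 of 5002 genes was called (0.02%), Spink13, and against the AII-like gate none of 792 (0%, 45 at an unadjusted p below 0.05 and none called by DESeq2). The call of Spink13, a protease inhibitor gene that averaged 4.36 ± 0.62 UMIs per 10000 in the AII-like gate (SD, n = 6), rested on 0, 0 and 3 UMIs in the Slc6a9-gated nuclei at 18 months and 1, 4 and 8 at 3 months. The GABAergic gate had 6, 36 and 24 UMIs at 18 months and 3, 0 and 0 at 3 months.

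The number of Slc6a9-gated nuclei did not separate the ages. They made up 0.356, 0.0865 and 0.0899% of kept nuclei at 18 months and 0.229, 0.184 and 0.130% at 3 months. The mean was 0.178% ± 0.155 at 18 months and 0.181% ± 0.049 at 3 months (SD, n = 3 each; two-sided exact permutation p = 1, adjusted p = 1). Of all gated amacrine nuclei they were 6.44, 3.90 and 8.97% at 18 months and 5.66, 12.9 and 5.88% at 3 months (exact permutation p = 0.7, adjusted p = 0.84). The share nearest an amacrine profile averaged 26.4% ± 17.7 at 18 months and 32.4% ± 9.76 at 3 months (exact permutation p = 0.7, adjusted p = 0.84).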

How the data were processed

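Nuclear RNA was measured with 10x Genomics chemistry in 6 libraries. The deposited values are unnormalized UMI counts of genes in barcodes, made by the authors with Cell Ranger 7.1.0 (replicate 1 of both ages) or 7.2.0 (the others), per the file headers; per the submitters' processing notes, the build was mm10 and Seurat was used. Libraries held 15905689 to 29340705 UMIs over 62893 barcodes, all of at least 500 UMIs. No authors' clusters were used. Counts were summed per gate and library (UMIs per 10000 are divided by the gate's total) and tested with edgeR 4.0.16 (quasi-likelihood, TMM, filterByExpr) in R 4.3.3: age alone, or gate plus library for comparisons of gates, without the gates' genes. Standard errors are the log2 difference over the root of F. The AII-like gate was the same gate at 3 or more Dab1 UMIs; the GABAergic gate asked for 2 or more Gad1 and Gad2 UMIs and no Slc6a9, Chat, Slc18a3 or Slc5a7; the rod gate for 3 or more UMIs of Pde6a, Pde6b, Cnga1, Nrl and Nr2e3. Profiles used 32238 genes with 0.5 added to each count. Clusters came from scanpy 1.11.5 (leidenalg 0.10.2, Python 3.11.15). Single values were compared by exact permutation tests in scipy 1.17.1. DESeq2 1.42.0, other thresholds and removal of nuclei with high Scrublet scores were alternatives. Fits were tested on simulated data. Scrublet's own caller marked at most 1 nucleus a library and was not used. Members and gene lists were chosen with earlier results of these data known. For gates, the named genes are the 12 largest differences per direction among those called, with at least 0.5 UMIs per 10000 in the higher gate and 1 direction in 6 libraries; for age, up to 10 per direction by lowest unadjusted p among those that do not overlap, at 0.2 UMIs per 10000 or more; genes of the glycinergic, transcription factor, type, receptor and gap junction lists could be named anywhere. One list gene, Ddit3, has 2 identifiers and was left out. A few genes that this rule names are not reported here.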

Additional observations from a re-analysis of the deposited data

Results flagged for a closer look

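The age difference of Spink13 (18 months minus 3 months) was lower in the Slc6a9-gated nuclei than in the GABAergic gate by the interaction test, at a log2 value of −6.05 ± 1.34 (edgeR adjusted p = 0.0322). It rested on 16 UMIs in the Slc6a9-gated nuclei and 69 in the GABAergic gate. The call was lost with DESeq2, at 3 or more Slc6a9 UMIs and with at most 2% mitochondrial UMIs. It was also lost when replicate 2 or replicate 3 of either age was left out, and was kept when replicate 1 of either age was left out or a term for the Cell Ranger release was added. The cause was not tested.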

How the results depend on the processing

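The difference between ages in the share of kept nuclei (18 months minus 3 months) was −0.0032 percentage points and turned to 0.0474 with no Dab1 UMI allowed, and that in the share of gated amacrine nuclei was −1.71 and turned to 0.0298. Leaving out single libraries gave −0.0926 to 0.0424 and −2.98 to 0.664. With 3 libraries per age the smallest exact permutation p for these shares is 0.1, and fewer libraries allow none lower. No p for the shares could therefore fall below 0.05. The difference in the share of rod markers kept its direction without any 1 library, at 0.588 to 0.723 percentage points from the AII-like gate and 0.881 to 1.14 from the GABAergic gate. With 5 libraries the smallest exact p is 0.0625, so none of these can pass.

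Genes called against the GABAergic gate numbered 266 to 634 without 1 library, 991 (125 higher, 866 lower) with no filter on low counts and 216 (21 higher, 195 lower) at 3 or more Slc6a9 UMIs. Against the AII-like gate they numbered 99 to 201 without 1 library, 13 (1 higher, 12 lower) at 3 or more Slc6a9 UMIs and 80 (22 higher, 58 lower) with no Dab1 UMI. For age, 0 were called without any 1 library and 2 with no filter. The interaction with the GABAergic gate gave 0 to 11 calls without 1 library, 0 with DESeq2 and at 3 or more Slc6a9 UMIs, and 2 with at most 2% mitochondrial UMIs or a release term. That with the AII-like gate gave 0 to 2 without 1 library, and 1 with no filter or at most 2% mitochondrial UMIs. The cause was not tested. Of the named genes' values under alternatives, 293 of 293 for age kept their direction and their side of the threshold. Against the GABAergic gate 295 of 297 did so and against the AII-like gate 270 of 289, and the others lost their call. The named genes had been chosen for ages that do not overlap or for 1 direction in 6 libraries, and none was called for age. These counts were therefore largely fixed by that choice and are no separate support.

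With the replicate number as a replicate block, 0 genes were called for age (20 at an unadjusted p below 0.05). Libraries of the same number correlated at 0.448, 0.371 and 0.0895 in their deviations from the age means. Those of different numbers correlated at −0.436 to 0.228, the highest being 18-month replicate 3 with 3-month replicate 2. The labels give no pairing, so the numbers were not taken as pairs in the main fit. Whether libraries of 1 number share a batch was not tested. Without the library as a block, 390 genes were called against the GABAergic gate and 66 against the AII-like gate. The depth of 234476 UMIs over 81 nuclei limits every comparison of low genes.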
